A study of Mus musculus with 26 samples.

Results

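The genes described here are 10 components of endosomal nucleic acid sensing, chosen by symbol: the receptors Tlr3, Tlr7, Tlr8, Tlr9 and Tlr13, the chaperone Unc93b1, the adaptors Myd88 and Ticam1, and the transcription factors Irf3 and Irf5. All 10 were found among the 56392 genes of the deposited table, and all 10 were among the 15672 genes tested. The data are RNA sequencing of poly(A) RNA from spleens of female BALB/c mice aged 8 weeks, in 26 libraries. Saline was given to 1 group (code CT, 5 libraries). The OVA groups (code OS, 6 libraries, and code ON, 5 libraries) received ovalbumin (OVA, the main protein of egg white and a common experimental allergen), 0.05 mg daily. The remaining groups (codes MM and MN, 5 libraries each) received the same OVA plus 7 mg per kg of a miR-676-3p mimic, a synthetic copy of that microRNA. Injections into the peritoneum fell on days 1, 3 and 5, with the mimic injected once, on day 3, through the tail vein. No genotype other than the strain is labelled, the codes are not defined, and the labels do not say that each library is a separate mouse. The p-values below therefore measure the spread between these libraries, which may be in part technical.

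Endosomal Toll-like receptors read nucleic acids that reach the lumen of endosomes and lysosomes. Tlr3 binds double-stranded RNA, Tlr7 and, in human cells, TLR8 bind single-stranded RNA and its breakdown products, Tlr9 binds DNA rich in unmethylated CpG, and Tlr13, present in mouse, binds bacterial ribosomal RNA. Unc93b1 carries these receptors from the endoplasmic reticulum to endosomes. Myd88 is the adaptor of all of them except Tlr3, which signals through Ticam1, also called TRIF. Irf3 is activated below Ticam1 and below cytosolic sensors, and Irf5 below Myd88. In the mouse spleen these genes are known from B cells, dendritic cells, macrophages and monocytes.

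The mimic given to the MM and MN mice copies a microRNA, whose mature sequence is shown because the seed (bases 2 to 8, in capitals) decides which messages it can pair with. The sequence is from RefSeq, on GRCm38.p6 at chrX:100381151-100381171 on the + strand.
mmu-miR-676-3p: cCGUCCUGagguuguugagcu
The matching site, CAGGACG, was absent from the annotated 3′ UTRs of all 10 genes in GENCODE M21. The longest 3′ UTR searched ranged from 61 bases in Tlr8 to 1499 bases in Tlr3. This says only that these letters are not in those annotated stretches.

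Several libraries stood apart before any comparison. The reads recovered from the FPKM values numbered 14224832 to 18113989 per library, and a read on 1 kilobase of gene was worth 0.0520 to 0.0899 FPKM. A list of 9 genes of the pancreas, which lies next to the spleen, held 16.3% of the reads of library ON 2, against 8.23% for MM 2 and 2.44% for ON 3. Saline library CT 4 had 6.62% mitochondrial reads against 1.26% to 2.39% in the other 25. A GC index was taken as the median deviation, in log2, of coding genes of at least 55.0% GC minus that of coding genes of at most 45.3% GC. It was -0.80 in CT 4 and -0.72 in OS 5, and -0.25 to 0.22 elsewhere. Markers of B cells, T cells, dendritic cells, red pulp macrophages, monocytes, neutrophils and erythroid cells were all detected in every code, and none of them was at 0 throughout a code.

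Levels are given in FPKM, fragments per kilobase of gene and scaled to library size, so they can be set side by side between genes. The size used was an effective one, from 0.712 times the recovered reads in ON 2 to 1.12 times in ON 1. Unc93b1 was the most abundant of the 10, at a mean of 117 FPKM over the 26 libraries, followed by Irf5 at 42.7 and Irf3 at 20.6. Myd88 averaged 14.9, Tlr9 12.7, Tlr7 11.3 and Tlr13 10.1 FPKM. Ticam1 averaged 5.80, Tlr8 5.10 and Tlr3 2.90 FPKM. The top of this order was fixed, because Unc93b1 exceeded Irf5 and Irf5 exceeded Irf3 in 26 of 26 libraries. Tlr13 exceeded Ticam1 in 26 of 26 as well. Neighbours in the middle were not separated beyond their spread: Tlr9 exceeded Tlr7 in 18 of 26 libraries, Ticam1 exceeded Tlr8 in 20, and Myd88 exceeded Tlr9 in 21. The chaperone was thus present at a higher level per length than any receptor it serves, in each library.

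The 10 genes differed in how much they varied. Tlr8 spanned 4.91-fold, from 1.86 FPKM in MM 1 to 9.15 FPKM in OS 5, and its within-code SD on the log2 scale lay at the 89.98th percentile of all tested genes. Ticam1 spanned 1.46-fold, from 4.46 to 6.52 FPKM, with an SD at the 1.34th percentile. Tlr7 spanned 1.93-fold and Tlr13 2.23-fold. Irf3, Unc93b1 and Irf5 spanned 3.68-fold, 3.54-fold and 3.32-fold, each with its lowest value in CT 4.

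**Figure D1:**
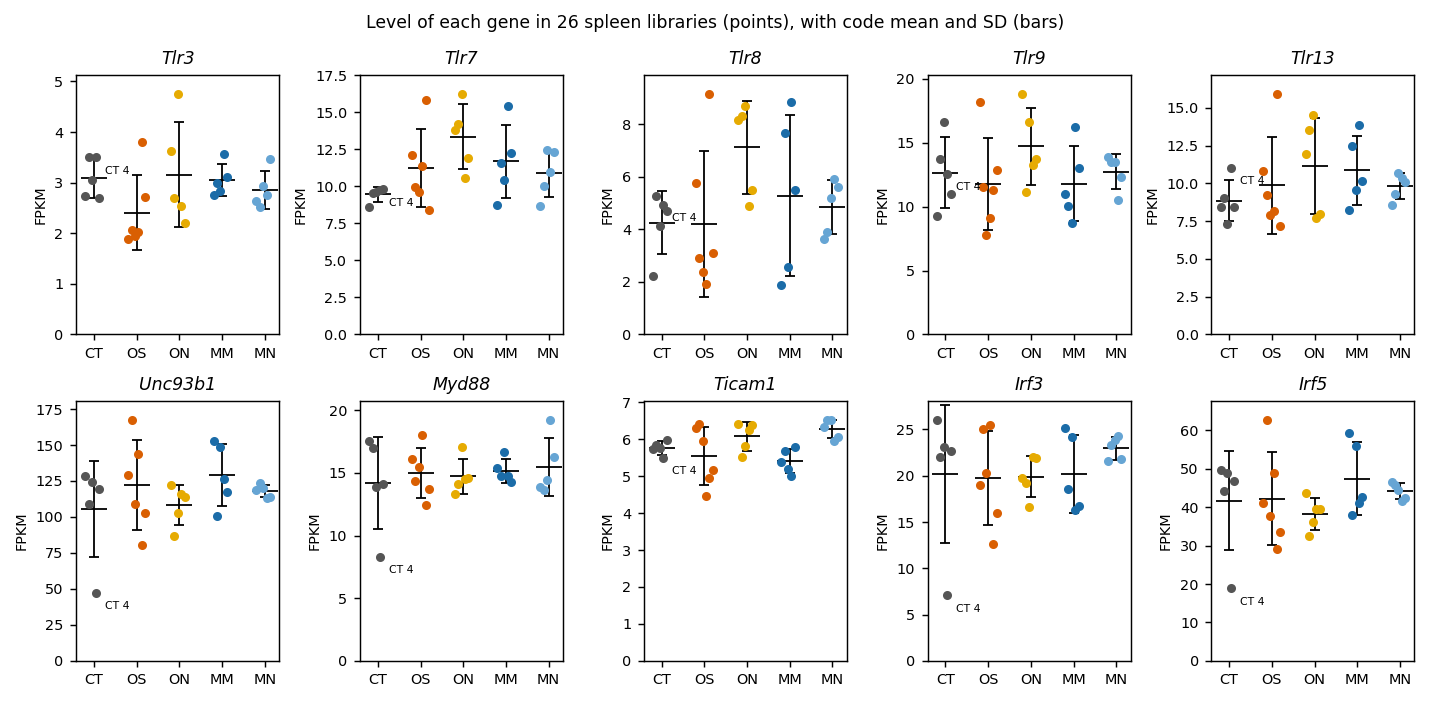
Level of each of the 10 genes in FPKM (vertical axes, from 0) in the 26 spleen libraries, by code; each point is a library, and bars are the code mean and SD. Library CT 4 lies far below the other saline libraries for Unc93b1, Irf3, Irf5 and Myd88, and Tlr8 spreads from 1.86 to 9.15 FPKM.

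OVA against saline asks what the allergen changed. None of the 10 genes passed an adjusted p of 0.05 (limma, Benjamini-Hochberg over 15672 genes), where 2.17% of all tested genes did. At an unadjusted p under 0.05, 1 of the 10 passed, against 16.3% of all tested genes. That gene was Tlr7, the single-stranded RNA receptor, with a log2 difference of 0.32 ± 0.12 (SE; 95% interval 0.07 to 0.57; limma adjusted p = 0.180). Its level was higher than the saline mean in 10 of 11 OVA libraries. The other 9 genes lay between -0.15 for Tlr3 and 0.26 for Tlr8. Over the 10 genes the 95% intervals ran from -0.40 to 0.82, and a p that misses the threshold does not show that the levels were alike. The median log2 difference of the 10 was 0.08, against 0.01 for all tested genes. This median includes CT 4. Without it the differences of Unc93b1, Irf5, Irf3 and Myd88 went from 0.18, 0.00, 0.07 and 0.10 to -0.08, -0.26, -0.25 and -0.07. Ticam1 and Tlr3 were then -0.01 and -0.11, and Tlr7, Tlr8, Tlr13 and Tlr9 were 0.33, 0.31, 0.26 and 0.05.

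Tlr7 was read in each code. In saline it was 8.60, 9.53, 9.65, 9.75 and 9.84 FPKM in CT 1 to CT 5. In ON it was 13.8, 14.2, 16.3, 10.6 and 11.9 FPKM in ON 1 to ON 5, and in OS its lowest, median and highest values were 8.42, 10.7 and 15.9 FPKM. The saline libraries lay close together and all 5 ON libraries lay above them, whereas OS overlapped saline with 4 of 6 libraries above its highest. In MM it was 8.74, 11.6, 10.4, 15.4 and 12.2 FPKM and in MN 8.69, 10.05, 12.4, 10.9 and 12.3 FPKM. In each of these codes 4 of 5 libraries lay above the highest saline library too. In ON against saline the log2 difference of Tlr7 was 0.44 ± 0.14 (95% interval 0.14 to 0.74; limma adjusted p = 0.151), and 0 of 10 genes passed where 0.51% of all tested genes did. Ranges that do not overlap, with ON higher, held for 1 of the 10 genes and for 1.19% of all tested genes. ON 2 and ON 3 carried pancreatic reads, and without ON 2, ON 3 and MM 2 the difference was 0.32 (limma adjusted p = 0.637). Over all alternatives run its adjusted p lay between 0.0702 and 0.645.

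Tlr8, whose human counterpart binds single-stranded RNA, lies beside Tlr7 on chromosome X in the deposited table (Tlr8 from 166025692 to 166047325, Tlr7 from 166087925 to 166113554, both on the - strand, on a build the table does not name). In saline it was 2.24, 5.27, 4.11, 4.93 and 4.68 FPKM in CT 1 to CT 5. In ON it was 8.15, 8.32, 8.69, 4.89 and 5.498 FPKM, and in OS its lowest, median and highest values were 1.94, 2.99 and 9.15 FPKM. ON 1, ON 2 and ON 3 were high, ON 4 and ON 5 fell within or just above the saline range, and a single OS library, OS 5, was as high. The log2 difference of ON from saline was 0.64 ± 0.32 (95% interval -0.027 to 1.298; limma adjusted p = 0.391). ON 2 and ON 3 carried pancreatic reads. Without ON 2, ON 3 and MM 2 the difference of ON from saline was 0.46 (limma adjusted p = 0.793). That of OS from ON was then -0.58 (limma adjusted p = 0.630). OS against ON, both OVA, differed by -0.76 ± 0.31 (95% interval -1.39 to -0.12; unadjusted p = 0.021, limma adjusted p = 0.366). No gene of the 10 passed in OS against ON, where 0.185% of all tested genes did. An unadjusted p under 0.05 held there for 1 of the 10 and for 1658 of 15672 tested genes.

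Tlr3, the double-stranded RNA receptor, had its lowest values in OS. In saline it was 2.74, 3.50, 3.06, 3.50 and 2.69 FPKM in CT 1 to CT 5. In OS the lowest, median and highest values were 1.88, 2.05 and 3.81 FPKM, and 4 of 6 OS libraries lay below every saline library. OS 5 instead lay above them all. The log2 difference of OS from saline was -0.29 ± 0.14 (95% interval -0.57 to -0.004; unadjusted p = 0.047, limma adjusted p = 0.296), and 0 of the 10 genes passed where 2.99% of all tested genes did. At an unadjusted p under 0.05 the counts were 1 of the 10 and 2557 of 15672 tested genes. In ON, Tlr3 was 3.62, 2.69, 4.76, 2.54 and 2.20 FPKM, a spread that covered the whole saline range.

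The ranges of Tlr9 and Tlr13 overlapped between saline, OS and ON. Tlr9, the DNA receptor, averaged 12.6 ± 2.77 (SD, n = 5) FPKM in saline, 11.8 ± 3.61 (n = 6) in OS and 14.7 ± 3.01 (n = 5) in ON. Tlr13, the bacterial ribosomal RNA receptor, averaged 8.84 ± 1.36, 9.86 ± 3.23 and 11.1 ± 3.15 FPKM in the same codes. In OVA against saline their log2 differences were 0.05 ± 0.16 and 0.19 ± 0.16, with limma adjusted p of 0.930 and 0.604. Without the libraries ON 2, ON 3 and MM 2, which carried pancreatic reads, Tlr13 went from 0.19 to 0.07 in OVA against saline and from 0.27 to 0.040 in ON against saline (limma adjusted p of 0.896 and 0.978).

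For the chaperone and the transcription factors the saline mean depended on CT 4. Unc93b1 was 128, 109, 124, 47.3 and 120 FPKM in CT 1 to CT 5. Irf5 was 49.7, 44.2, 49.0, 18.9 and 46.7 FPKM, and Irf3 was 26.02, 22.0, 23.1, 7.07 and 22.7 FPKM in the same libraries. CT 4 was far below the other 4 saline libraries for all of these, and it was the lowest of the 26 libraries for each. Without CT 4 the saline means were 120 ± 8.33 for Unc93b1, 47.4 ± 2.50 for Irf5 and 23.5 ± 1.76 FPKM for Irf3 (SD, n = 4). In OVA against saline the log2 differences were then -0.08, -0.26 and -0.25, where with CT 4 they were 0.18, 0.00 and 0.07. None of these passed the test, with limma adjusted p of 0.779, 0.318 and 0.317 without CT 4. The part of mitochondrial reads and of GC in these values was not tested.

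The adaptors Myd88 and Ticam1 also had ranges that overlapped between saline, OS and ON. Myd88 averaged 14.2 ± 3.68 FPKM in saline, with 8.29 in CT 4, and 15.01 ± 1.98 in OS and 14.7 ± 1.40 in ON. Ticam1 averaged 5.77 ± 0.18 in saline, 5.55 ± 0.80 in OS and 6.08 ± 0.39 FPKM in ON. In OVA against saline, Ticam1 had the narrowest interval of the 10, with a log2 difference of 0.00 ± 0.07 (95% interval -0.13 to 0.14; limma adjusted p = 0.988).

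OVA with mimic against OVA asks what the microRNA mimic added. None of the 10 genes passed, as none of the 15672 tested genes did (0%), and 0 of the 10 had an unadjusted p under 0.05 against 10.1% of all tested genes. The log2 differences lay between -0.11 for Tlr7 and 0.20 for Irf5, and the 95% intervals of the 10 ran from -0.56 to 0.50. Irf5 averaged 45.8 ± 6.73 FPKM with the mimic (n = 10) and 40.4 ± 9.16 with OVA alone (n = 11). The log2 difference was 0.20 ± 0.15 (limma adjusted p = 0.652). In OVA with mimic against saline, 0 of the 10 and 0% of all tested genes passed. These comparisons share libraries with the previous ones. In MM against saline 0 of the 10 passed, against 0.3% of all tested genes, and in MN against saline 0 of the 10, against 0%.

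MM and MN were both given the mimic with OVA, and what separates the codes is not defined in the labels. Ticam1 was 5.38, 5.68, 5.19, 5.01 and 5.78 FPKM in MM 1 to MM 5. In MN 1 to MN 5 it was 6.34, 6.52, 6.51, 5.97 and 6.06 FPKM. Every MM library lay below every MN library. The log2 difference was -0.18 ± 0.08 (95% interval -0.34 to -0.03; unadjusted p = 0.024, limma adjusted p = 0.561). Ranges that do not overlap, with MM lower, held for 1 of the 10 genes and for 1.91% of all tested genes. No gene of the 10 passed in this comparison, where 0.172% of all tested genes did. An unadjusted p under 0.05 held for 1 of the 10 and for 1137 of 15672 tested genes. The other 9 genes overlapped between MM and MN, and Tlr8 ranged from 1.86 to 8.84 FPKM in MM and from 3.64 to 5.92 FPKM in MN.

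**Figure D2:**
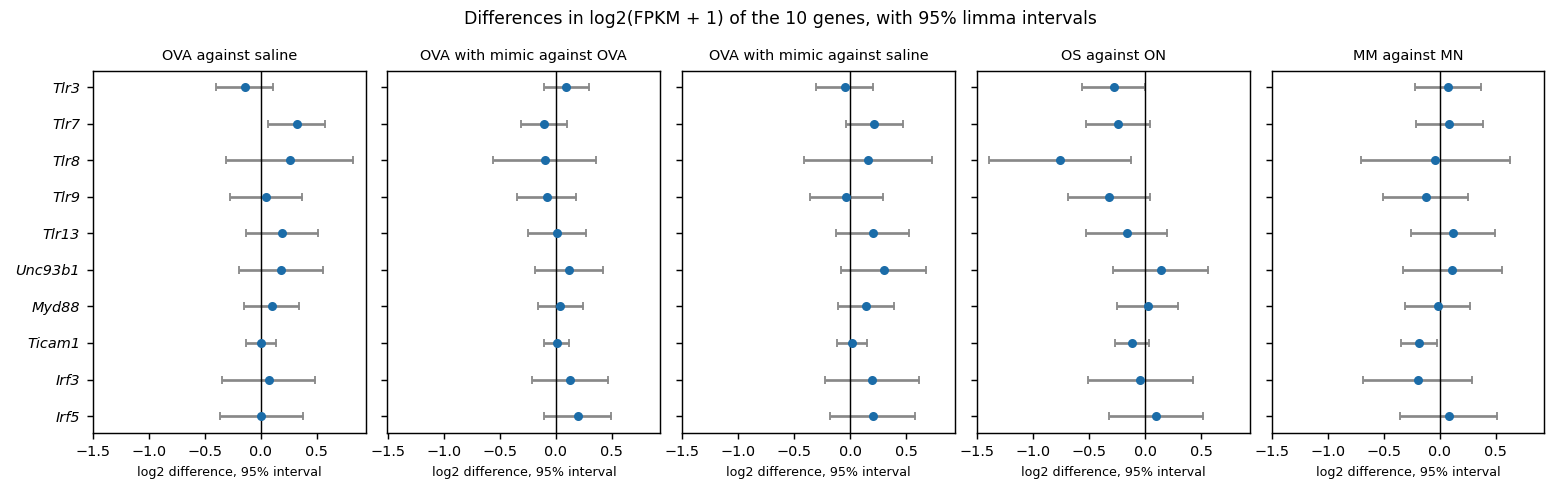
Log2 difference of each of the 10 genes (points) with 95% limma intervals (bars) in 5 comparisons; the horizontal axis is the difference in log2(FPKM + 1). In OVA against saline the interval of Tlr7 is 0.07 to 0.57, and in OS against ON that of Tlr8 is -1.39 to -0.12, but no gene passes after adjustment.

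Across libraries 6 of the 10 genes formed blocks whose members varied together. Unc93b1, Irf5 and Irf3 varied together: over 26 libraries Spearman's rho was 0.86 for Unc93b1 with Irf5, 0.83 for Irf3 with Irf5 and 0.67 for Unc93b1 with Irf3. Pearson's r was 0.96, 0.89 and 0.87, and without the 2 libraries farthest from the median of the first gene 0.92, 0.72 and 0.58. Tlr7, Tlr8 and Tlr13 formed the other block, with rho of 0.80 for Tlr7 with Tlr8, 0.78 for Tlr8 with Tlr13 and 0.75 for Tlr7 with Tlr13. Their r was 0.80, 0.79 and 0.84, and without the 2 farthest libraries 0.75, 0.80 and 0.77. Genes outside the 10 moved as closely with these members. Of all tested genes, 2.97% had a higher rho with Unc93b1 than Irf3 had, and 0.0957% a higher one than Irf5 had. With Irf3, 2.05% had a higher rho than Irf5. With Tlr8, 1.23% had a higher rho than Tlr13. With Tlr7, 0.0510% had a higher rho than Tlr8 and 0.147% a higher one than Tlr13. Between the blocks the 9 values of rho ranged from -0.63 to -0.18, and the larger ones in size were those of Tlr8, at -0.63 with Irf3, -0.62 with Irf5 and -0.51 with Unc93b1. Tlr7 had -0.39, -0.40 and -0.18 with the same genes, and Tlr13 had -0.48, -0.39 and -0.28. Libraries share depth, base composition and cell makeup, so these values describe the libraries and carry no p.

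After the code means were subtracted, Unc93b1 with Irf5 reached rho 0.96, and Irf5 was the closest of all tested coding genes to Unc93b1. Tlr8 with Tlr13 reached 0.82 and Tlr7 with Tlr13 0.81. Of all tested genes, 92 were closer to Tlr8 than Tlr13 was, and 10 were closer to Tlr7 than Tlr13 was. Tlr7 with Tlr8 had 0.71, with 120 genes closer to Tlr7. Unc93b1 with Irf3 and Irf3 with Irf5 each had 0.87, with 161 genes closer to Unc93b1 and 264 closer to Irf3. Without CT 4, ON 2, ON 3 and MM 2 (22 libraries), rho was 0.77 for Unc93b1 with Irf5, 0.74 for Tlr7 with Tlr8 and 0.68 for Tlr8 with Tlr13. Between the blocks Tlr8 had -0.61 with Irf3, -0.59 with Irf5 and -0.43 with Unc93b1 in these 22 libraries. Unc93b1 had -0.06 with Tlr7 and 0.06 with Tlr13 there, and Tlr13 with Irf5 had -0.11. Tlr9, Tlr3, Myd88 and Ticam1 stood partly outside these blocks. Over the 26 libraries, with the code means kept, Tlr9 reached at most 0.44 with another member, Tlr8, and Ticam1 at most 0.42 with Tlr9. Tlr3 reached 0.55 with Tlr13 and 0.54 with Tlr8, and Myd88 0.46 with Irf3. Tlr8, the most variable of the receptors, was highest in OS 5, MM 4, ON 3, ON 2 and ON 1, and lowest in MM 1, OS 4 and CT 1.

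**Figure D3:**
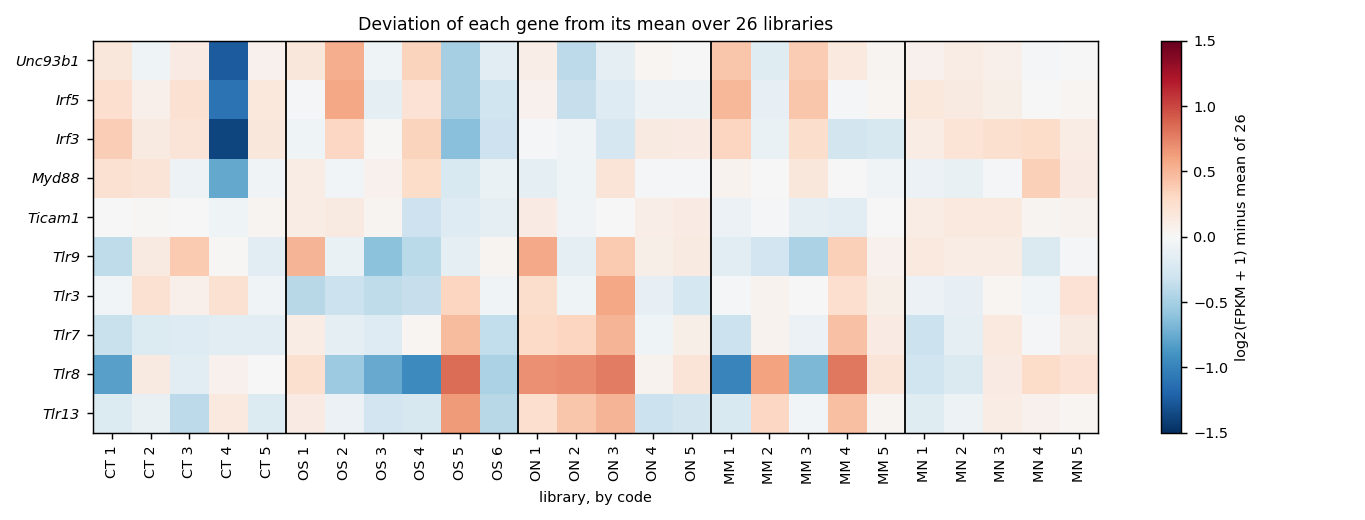
Deviation of log2(FPKM + 1) of each gene (rows) from its mean over 26 libraries (columns, by code); red is above and blue below the mean. Unc93b1, Irf5 and Irf3 are lowest in CT 4, and Tlr7, Tlr8 and Tlr13 are each above their mean in OS 5, ON 1 to ON 3 and MM 4.

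**Figure D4:**
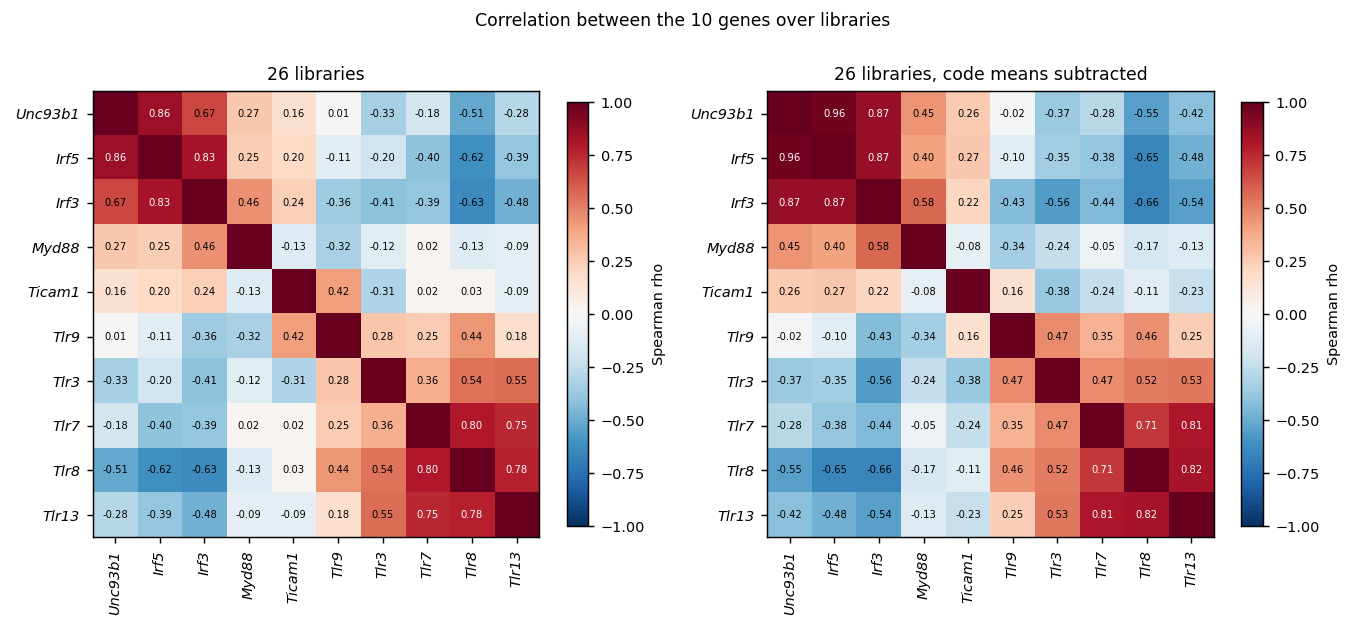
Spearman's rho between the 10 genes over 26 libraries, without (left) and with (right) the code means subtracted. Unc93b1 with Irf5 is 0.86 on the left and 0.96 on the right, and Tlr8 with Irf3 is -0.63 and -0.66.

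Several measures of the libraries moved with the blocks. The GC index had rho of 0.72 with Irf5, 0.69 with Irf3 and 0.62 with Unc93b1, and of -0.55 with Tlr8, -0.49 with Tlr7 and -0.46 with Tlr13 (26 libraries). The transcripts of the blocks differ in base composition: 40.1% GC in Tlr8, 41.0% in Tlr7 and 43.6% in Tlr13, against 57.3% in Unc93b1, 56.7% in Irf3 and 55.7% in Irf5. Tlr9 at 56.2% and Ticam1 at 56.4% did not follow the GC-rich block as closely, with rho of 0.04 and 0.43 to the GC index. Tlr3, at 40.0% GC, had rho of -0.40 to it, and Myd88, at 53.6%, had 0.15. The read share of ribosomal protein genes had rho of -0.81 with Tlr8, 0.69 with Irf3 and 0.66 with Irf5. The part of these measures in the blocks was not tested.

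Cell type markers moved with them too. The mean log2 level of 7 B cell markers had rho of 0.82 with Unc93b1 and 0.78 with Irf5, but 0.42 with Irf3 and 0.25 with Tlr9. Over the codes the summed level of these markers ranged from 509 FPKM in MM 2 to 1290 in OS 2, and CT 4, at 618, was the lowest saline library. The mean of 6 red pulp macrophage markers had rho of 0.74 with Tlr8, 0.64 with Tlr7 and 0.56 with Tlr13, with sums from 406 FPKM in OS 4 to 781 in MM 2. The mean of 5 type 1 conventional dendritic cell markers had rho of 0.81 with Tlr3, also 0.81 in the 22 libraries without CT 4, ON 2, ON 3 and MM 2. The sums of these markers ranged from 39.5 FPKM in OS 3 to 68.6 in ON 1. They rest largely on Wdfy4, which averaged 35.8 FPKM over the 26 libraries. The same dendritic cell list had rho of 0.56 with Tlr8 (0.66 in those 22 libraries), 0.49 with Tlr13 and 0.34 with Tlr7. The 5 monocyte markers had rho of 0.37 with Tlr8 and -0.63 with Unc93b1. The 5 T cell markers had rho of 0.70 with Irf5, 0.65 with Irf3 and 0.56 with Unc93b1. Neutrophil markers reached -0.41, with Irf5, and erythroid markers -0.49, with Tlr7. In the plasmacytoid dendritic cell list, Klk1 was 2342 FPKM in ON 2, 978 in MM 2 and 297 in ON 3, against 0.948 to 6.60 in the other 23 libraries, so that list is not read in those 3. In the 22 libraries without them and without CT 4, its largest rho in size with any of the 10 was 0.41, with Irf5. Fewer cells of a type and less RNA per cell cannot be told apart in spleen tissue.

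**Figure D5:**
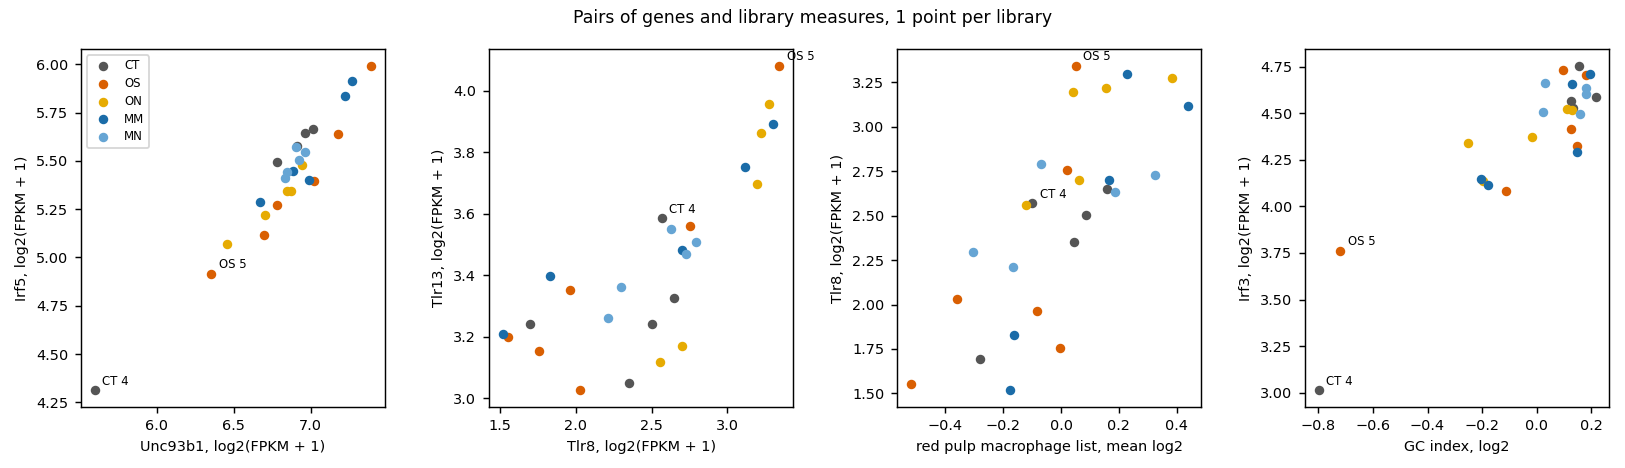
Each point is a library, coloured by code, with CT 4 and OS 5 named: Irf5 against Unc93b1, Tlr13 against Tlr8, Tlr8 against the mean of the red pulp macrophage markers, and Irf3 against the GC index, all on log2 scales. The first pair has rho 0.86 and the second 0.78, and in the fourth panel CT 4 and OS 5 lie lowest on both axes.

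The genes whose pattern over the 26 libraries was most like each member were taken as the 3 coding genes with the highest rho. For Tlr8 they were Atp7a (0.93), a copper transporter, Lmbrd2 (0.92) and Mrc1 (0.91), the mannose receptor of macrophages. For Tlr7 they were Wdfy2 (0.82), Sema6d (0.81) and Setd7 (0.81), and for Tlr13 Gfpt1 (0.84), Man2a1 (0.81) and Pla2g7 (0.81). For Unc93b1 they were Map4k2 (0.91), Blk (0.90), a B cell kinase, and Tnfrsf13c (0.90), the BAFF receptor of B cells. For Irf5 they were Pold4 (0.93), H2-DMa (0.93), which loads peptides on MHC class II, and Rabep2 (0.92), and for Irf3 Tnfrsf25 (0.94), Gimap1 (0.94) and Sfn (0.94). For Tlr3 they were Cyria (0.88), Tnfsf10 (0.86), the ligand TRAIL, and Gbp10 (0.81). For Tlr9 they were Wdfy4 (0.88), needed for cross-presentation by type 1 dendritic cells and part of the dendritic cell list above, Arid1b (0.86) and Dchs1 (0.85). Myd88 and Ticam1 had less close neighbours, Selplg (0.76), Lgmn (0.71) and Tmem120a (0.68) for Myd88 and Gng10 (0.75), P3h3 (0.74) and Ptcd1 (0.74) for Ticam1.

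Promoters are shown for a pair from each block, Tlr8 and Tlr13 against Irf3 and Irf5, because the members of each block varied together and Tlr8 had negative correlations with Irf3 and Irf5. Of the 10 genes 8 had a promoter in the table, and Tlr7 and Unc93b1 were not searched. Each runs from 250 bases before to 50 after the start, from RefSeq on GRCm38.p6, 5′ to 3′ on the gene's strand. They are Tlr8 at chrX:167264280-167264579 (- strand), Tlr13 at chrX:106143025-106143324 (+), Irf3 at chr7:44997398-44997697 (+) and Irf5 at chr6:29526375-29526674 (+). Capitals mark matches to AGGAAG, a form of the ETS site, or to the interferon-regulatory core AANNGAAA, each searched on both strands. Other forms of the ETS site were not searched.
Tlr8: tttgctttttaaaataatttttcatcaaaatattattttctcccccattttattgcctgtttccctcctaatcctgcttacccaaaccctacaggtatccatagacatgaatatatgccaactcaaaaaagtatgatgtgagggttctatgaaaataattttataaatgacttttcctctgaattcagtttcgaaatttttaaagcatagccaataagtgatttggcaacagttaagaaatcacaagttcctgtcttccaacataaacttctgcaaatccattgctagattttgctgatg
Tlr13: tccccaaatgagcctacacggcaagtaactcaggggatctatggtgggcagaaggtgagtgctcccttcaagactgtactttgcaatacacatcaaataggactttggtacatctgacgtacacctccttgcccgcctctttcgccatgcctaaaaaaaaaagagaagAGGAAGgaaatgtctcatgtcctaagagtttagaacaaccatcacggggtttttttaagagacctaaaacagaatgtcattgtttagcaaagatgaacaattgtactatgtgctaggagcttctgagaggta
Irf3: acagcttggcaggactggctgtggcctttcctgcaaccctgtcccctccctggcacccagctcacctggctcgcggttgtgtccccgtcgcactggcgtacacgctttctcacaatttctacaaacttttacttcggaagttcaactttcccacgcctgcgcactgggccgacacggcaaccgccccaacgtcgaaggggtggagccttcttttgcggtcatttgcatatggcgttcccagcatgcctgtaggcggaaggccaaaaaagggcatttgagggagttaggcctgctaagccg
Irf5: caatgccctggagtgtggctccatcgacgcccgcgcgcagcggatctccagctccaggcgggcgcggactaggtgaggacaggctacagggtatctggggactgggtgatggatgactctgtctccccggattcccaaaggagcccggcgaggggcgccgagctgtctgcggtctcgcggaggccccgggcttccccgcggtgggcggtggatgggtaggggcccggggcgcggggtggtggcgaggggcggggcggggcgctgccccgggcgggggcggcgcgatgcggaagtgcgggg
Base composition separates these 4 promoters as it separates their transcripts. The Tlr8 promoter is 32.3% GC with 1 CpG and that of Tlr13 43.3% with 5, whereas Irf3 is 58.3% with 18 and Irf5 74.7% with 35, against a median of 7 CpG over 32851 promoters. The promoters not printed do not all follow their transcripts. Tlr3, with a transcript of 40.0% GC, has a promoter of 51% with 10 CpG, and Tlr9, at 56.2%, one of 49.7% with 0. Myd88 (53.6%) and Ticam1 (56.4%) have promoters of 54% with 13 CpG and 60% with 10. AGGAAG occurs in Tlr13, 82 bases before the start, and in 35.4% of all promoters. AANNGAAA, found in 23.9% of all promoters, occurs in none of the 4. Among the promoters not printed, those of Myd88 and Tlr3 hold AANNGAAA, and those of Tlr9 and Ticam1 each hold 2 matches to AGGAAG. These are matches of letters only.

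Other genes of the pathway were counted in lists drawn up with earlier results of these data known. Of 14 trafficking and processing genes, 0 passed in any of the 9 comparisons. The same held for 6 tested genes that handle nucleic acids in lysosomes, 8 cytosolic sensors and 10 interferon targets. In OVA against saline the interferon targets had a median log2 difference of -0.08, against 0.01 for all tested genes, with 2 of 10 above 0. Ctss, the protease cathepsin S, was 213 FPKM in OVA and 266 in saline, with a log2 difference of -0.33 ± 0.10 (limma adjusted p = 0.0674).

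In OS against saline, where 2.99% of all tested genes passed, 5 pathway genes passed the limma test, and in no other comparison did any. Tnfaip3, the ubiquitin editor A20 that limits NF-κB signalling, rose from 16.9 ± 6.24 FPKM in saline to 47.8 ± 19.1 in OS, by 1.41 ± 0.33 (limma adjusted p = 0.0180). Tank, a scaffold below the adaptors, rose by 0.37 ± 0.10 (adjusted p = 0.0421), from 12.1 ± 0.60 to 16.1 ± 2.21 FPKM. The chemokines Ccl3 and Ccl4 rose by 1.57 ± 0.42 (adjusted p = 0.0409) and 1.77 ± 0.48 (adjusted p = 0.0421). Tlr11, a receptor for protein ligands that also depends on Unc93b1, fell by 0.69 ± 0.17 (adjusted p = 0.0240), from 5.04 ± 1.07 to 2.79 ± 1.02 FPKM. These were 1 of 21 signalling genes, 1 of 7 brakes, 2 of 7 tested inflammatory targets and 1 of 6 tested other Toll-like receptors. The other OVA code, ON, did not share the rise of Tnfaip3. There Tnfaip3 was 18.7 FPKM, with a log2 difference from saline of -0.02 ± 0.34 (limma adjusted p = 0.990). The 7 tested inflammatory targets had a median log2 difference of 0.63 in OS against saline, with 6 above 0. In ON against saline it was -0.34, with 1 above 0. In OS against saline the 7 neutrophil markers had a median log2 difference of 0.92, with 7 of 7 above 0 and 0 passing. Their summed levels were 1361 to 7929 FPKM in saline and 2049 to 7021 in OS. The 5 erythroid markers had a median of -0.41, with 0 passing. The part of these cells in the pathway values was not tested. Of 36 alternatives, the call held in 35 for Tnfaip3, 28 for Tlr11, 23 for Ccl3, 17 for Tank and 16 for Ccl4. Among these, median ratio scaling repeated the main fit. All 5 calls ended when only the codes OS and CT entered the fit, where the adjusted p of Tnfaip3 was 0.101. With the replicate number as a block, or with no filter on low values, the calls of Tank, Tlr11, Ccl3 and Ccl4 ended and that of Tnfaip3 held. Scaling to recovered read totals also ended the calls of Tank and Tlr11, and limma voom on recovered reads those of Ccl3 and Ccl4. The call of Tlr11 also ended without any 1 of CT 2, CT 3, CT 5 and OS 3, and that of Ccl3 without any 1 of CT 1 to CT 4, OS 2, OS 3, OS 4, OS 6 and MN 1. The call of Tank ended without any 1 of CT 1, CT 2, CT 3, CT 5, OS 2 to OS 6, ON 1 and MN 1 to MN 5. That of Ccl4 ended without any 1 of CT 1 to CT 4, OS 2, OS 3, OS 4, OS 6, ON 1, ON 4, MM 5, MN 1, MN 3, MN 4 and MN 5, and without CT 4, ON 2, ON 3 and MM 2 together. The highest adjusted p over the alternatives was 0.135 for Tlr11, 0.134 for Ccl3, 0.202 for Tank and 0.183 for Ccl4.

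Some of the 10 genes overlap others, and the labels and headers do not state whether the authors' counting used strand. Myd88 overlaps Acaa1a on the opposite strand by 1736 bases, Irf3 overlaps Bcl2l12 by 1065 and Irf5 overlaps Tnpo3 by 1045, with 10.3, 4.97 and 6.497 FPKM in those partners. Myd88 also lies over Slc22a14 on the same strand for 5478 bases, and Tlr3 over the long noncoding Gm45542 on the opposite strand for 698, with partners at 0.0947 FPKM and at 0. Reads from the shared stretch may count for either gene. Irf5, at 42.7 FPKM, and Irf3, at 20.6 FPKM, were well above their partners, whereas Myd88, at 14.9 FPKM, was close to Acaa1a.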

How the data were processed

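RNA sequencing of poly(A)-selected spleen RNA was measured in 26 libraries, grouped by the codes of the labels. The authors deposited FPKM per gene with a gene length. Per the submitters' processing notes the tools were featureCounts 1.5.0-p3, HISAT2 2.0.5, edgeR 3.24.3, DESeq2 1.20.0, StringTie 1.3.3b and CASAVA, without roles. No source used here names the genome build. GENCODE M21 on GRCm38 had 52083 of the gene IDs, and 2.87% of them had the same coordinates, and 0 of the 10 genes did. The table's gene coordinates are thus on an unnamed build, and sequences are on GRCm38.p6.

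In all libraries 100% of values were whole multiples of a step (tolerance 0.05), which gave 14224832 to 18113989 reads per library. This covers counting error only, since no molecular identifiers are stated. The 15672 genes that reached an FPKM of 1 in 5 or more libraries were tested as log2(FPKM + 1) with limma 3.58.1 in R 4.3.3, 1 mean per code over all 26 libraries, a variance trend and Benjamini-Hochberg adjustment at 0.05 within each of 9 comparisons. The pseudocount understates folds of low genes. The OVA mean averages OS and ON, and the mimic mean averages MM and MN. The fit was tested on simulated data. Transcript GC and 3′ UTRs came from GENCODE M21. Descriptions used Python 3.11.15.

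All 10 genes were named in each comparison, with the 3 coding genes of highest Spearman correlation, and from 8 pathway lists up to 3 genes that passed and up to 2 of the highest FPKM that did not. Cell types had 9 marker lists. The members and lists were chosen with earlier results of these data known. Alternatives were another pseudocount, no filter, other scalings, limma voom on recovered reads, 1 mean per treatment, fewer codes, library weights, a replicate block and left-out libraries. Leaving out CT 4, ON 2, ON 3 and MM 2 together was chosen after seeing the data. No pair of libraries in a code agreed within sampling noise.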

Additional observations from a re-analysis of the deposited data

Results flagged for a closer look

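In 4 of the 50 sets of a gene in a code, the extreme library lay farther from its nearest neighbour, relative to the range, than Dixon's 95% critical value allows, and chance gives about 1 in 20. All 4 were in saline. Unc93b1 was 47.32 FPKM in CT 4 against 109 to 128 in the other saline libraries. Irf3 was 7.071 FPKM in CT 4 against 22.0 to 26.02, and Irf5 was 18.86 FPKM in CT 4 against 44.2 to 49.7. Tlr7 was 8.604 FPKM in CT 1 against 9.53 to 9.84. CT 4 also held 6.62% mitochondrial reads and 20681 genes above 0, the fewest of the 26 libraries, and the part of these in its values was not tested.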

How the results depend on the processing

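In every comparison 0 of the 10 genes passed under each of the 37 alternative settings that applied, the replicate block included (0 passed with the block), and the smallest adjusted p was 0.0702, for Tlr7 in ON against saline with library weights. Fitting 1 mean per treatment applied only to the 3 treatment comparisons. Median ratio scaling, also among the settings, repeated the main fit, because its size factors were 1 in all 26 libraries. It is therefore no separate check. Replicate numbers did not pair the libraries: 9 of 50 same-numbered pairs had r above 0.1 (median -0.04), and a library correlated best with its own number in 16 of 100 cases. With the block, the genes passing in all went from 340 to 184 in OVA against saline, from 469 to 306 in OS against saline, from 80 to 40 in ON against saline and from 29 to 3 in OS against ON.

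Of 3270 alternative values of the 90 differences, those of median ratio scaling included, 150 had the opposite sign. Of these, 17 came from a difference larger than its SE. In OVA with mimic against saline, Irf5 went to -0.0340 with library weights and -0.023 without CT 4, ON 2, ON 3 and MM 2, and Myd88 to -0.025 and -0.023. With a single library left out these ranged from -0.059 to 0.28 and from -0.028 to 0.22, lowest without CT 4. Without CT 4, ON 2, ON 3 and MM 2, Unc93b1 in OS against saline went to -0.013, and in MN against saline Unc93b1 went to -0.023, Irf3 to -0.028 and Myd88 to -0.018. With weights, Irf5 in MM against saline went to -0.019 and Myd88 in MN against saline to -0.022. With a single library left out, Unc93b1 in OS against saline ranged from -0.013 to 0.36, and Irf5 in MM against saline from -0.019 to 0.32. In MN against saline the ranges were -0.023 to 0.33 for Unc93b1, -0.028 to 0.41 for Irf3 and -0.018 to 0.23 for Myd88, again lowest without CT 4. The cause was not tested.

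The number of all tested genes that passed moved more than the 10 genes did. In OVA against saline it was 340, from 87 with 1 mean per treatment to 1435 with library weights, and 152 to 484 with a library left out. In OS against saline it was 469, from 88 with only those codes to 1353, and 836 without the 4 libraries. In ON against saline it was 80, from 8 to 859, in MM against saline 47, from 17 to 518, in OS against ON 29, from 0 to 564, and in MM against MN 27, from 1 to 474. In OVA with mimic against OVA, and against saline, 0 became 36 with weights, and at most 22 and 1 with a library left out. The least abundant of the 10 genes, Tlr3, rested on 139 to 409 reads per library, which sets its counting error.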
